A study of Mus musculus with 9 samples.

Results

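The genes described here encode the chains of the collagens, the proteins that make up most of the organic matrix of bone. They were taken as every gene whose symbol in the annotation of the array's probe sets has the form of a collagen chain name (Col, a type number, a and a chain number), and 44 of the 19937 genes with a probe set of 1 symbol met this rule. By textbook class, 11 of the 44 were fibrillar, 9 formed networks, 9 were FACIT chains (fibril-associated collagens with interrupted triple helices), 6 belonged to the beaded filament, 4 were membrane collagens and 5 belonged to other classes. A second probe set was present for Col6a5 and Col6a6 only, and the brighter of the pair was used.

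Every collagen molecule is a triple helix of 3 chains, which may be copies of the same gene product or products of different genes of a type. Newly made chains are hydroxylated on proline and lysine in the endoplasmic reticulum, fold into the helix, are secreted and trimmed, and are then crosslinked outside the cell. In bone, type I collagen is laid down by osteoblasts as the fibrils on which mineral forms, and the minor fibrillar collagens and the FACIT collagens set the width and the surface of these fibrils.

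The cells were MC3T3-E1 subclone 4, a clonal preosteoblast line from mouse calvaria that matures into matrix-forming osteoblasts in osteogenic medium. All groups carried a lentiviral shRNA and were sorted for GFP: a scramble sequence in the control cells (Scr) and a sequence against Runx2, the transcription factor on which the osteoblast lineage depends, in the depleted cells (shRunx2). RNA of 3 biological replicates per group was hybridised to Affymetrix Mouse Gene 1.0 ST arrays. The groups were proliferating Scr cells (Scr day 0), Scr cells after 9 days with ascorbic acid and beta-glycerophosphate (Scr day 9) and Runx2-depleted cells after the same 9 days (shRunx2 day 9). There was no depleted group at day 0, and all cells came from 1 clonal line. The depleted cells carried 1 shRNA sequence, so loss of Runx2 and any other effect of that sequence cannot be told apart.

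The values were log2 expression after robust multi-array averaging (RMA), and the number of arrays, 3 per group, limits their precision. Array medians were 8.42 to 8.45 at Scr day 0, 8.47 to 8.49 at Scr day 9 and 8.48 to 8.51 in shRunx2 cells. Every day 0 median thus lay below every day 9 median, and Scr day 0 replicate 1 had the lowest. Fits with median centring are given beside the results. Pearson correlations across genes between arrays of a group were 0.9981 or higher. The targeted gene Runx2 was not analysed here, so the depletion is taken from the labels and was not checked in these values. Of a list of osteoblast markers, all 6 measured genes rose between Scr day 0 and Scr day 9, and 5 of the 6 were lower in shRunx2 than in Scr cells at day 9. The level of that list, averaged over its 6 genes, was 8.14 to 8.24 over the Scr day 0 arrays, 9.71 to 9.80 over the Scr day 9 arrays and 9.00 to 9.01 over the shRunx2 arrays. Its part in the collagen values was not tested. In RNA from whole cultures, fewer cells of a kind and less RNA per cell cannot be told apart.

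The first comparison asked which collagen chains changed as the control cells differentiated. The fibrillar chains Col3a1, Col11a1 and Col24a1 were at least 1.5-fold higher at day 9. So were the type VI chain Col6a2, the network chain Col8a1 and the multiplexin Col15a1. Neither type I chain passed the test. In all, 15 of the 44 genes rose (34.1%, against 14.5% of all genes) and 3 fell (6.82%, against 17.1% of all genes), at an adjusted p under 0.05 from limma with Benjamini-Hochberg adjustment over all 19937 genes. Of the 44 members, 34 lay among the 9968 genes above the median level. The shares of all genes, here and below, are therefore not matched for level. Shares among the brighter genes were not determined, and the part of level in these differences was not tested. A rise of at least 1.5-fold was found for 6 members, a size reached by 2.89% of all genes, and no member fell by as much. The median log2 change was 0.034 over the 44 members and -0.016 over all genes, and the median over the members turned to -0.0072 with median centring and to -0.0098 with a further quantile normalization. Leaving out single arrays moved the count of rising members between 12 and 16.

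The second comparison asked which chains differed between Runx2-depleted and control cells at day 9. Col15a1, Col3a1, Col5a2, Col4a2 and Col11a1 were lower and Col8a1 was higher in the depleted cells, all by less than 1.5-fold. Thus 5 of 44 members fell (11.4%, against 4.66% of all genes) and 1 rose (2.27%, against 2.73% of all genes). No member differed by 1.5-fold or more, a size reached in either direction by 0.592% of all genes. At an unadjusted p under 0.05, 10 members were lower (22.7%, against 12.4% of all genes) and 3 higher (6.82%, against 7.18%). The median change was 0.0027 over the members and -0.0041 over all genes, and the former changed sign with median centring (-0.020), with array weights (-0.011), among genes above the median level (-0.0077) and on omitting replicate 1 of Scr day 9 (-0.025) or of the shRunx2 group (-0.0018). The 38 members that did not pass had log2 changes between -0.15 and 0.15, and their 95% intervals stayed within -0.37 and 0.27.

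The third comparison set shRunx2 day 9 against Scr day 0. It shares its arrays with the first and second, so its values are given beside theirs and are not independent of them. Here 18 members were higher (40.9%, against 13.8% of all genes) and 4 were lower (9.09%, against 20.4%). The count of 18 became 12 to 18 on leaving out single arrays and 11 with median centring. Of the 18, Col15a1, Col8a1, Col24a1 and Col3a1 exceeded 1.5-fold, a rise shown by 2.91% of all genes. The 22 members that passed in none of the 3 comparisons included Col1a1, Col1a2, the cartilage chain gene Col2a1, the hypertrophic cartilage chain gene Col10a1 and all 4 membrane collagens. Apart from Col1a1 and Col1a2, their group means lay between 7.79 and 9.98. No detection limit was set, so unexpressed genes and genes of unchanged expression were not told apart among them. Of all 19937 genes, 13629 did not pass with differentiation, 18463 with depletion and 13120 in shRunx2 day 9 against Scr day 0. The number of all genes that passed in none of the 3 comparisons was not determined. The count of 22 members therefore has no background to be set against and is not read as a trait of collagen genes.

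**Figure D1:**
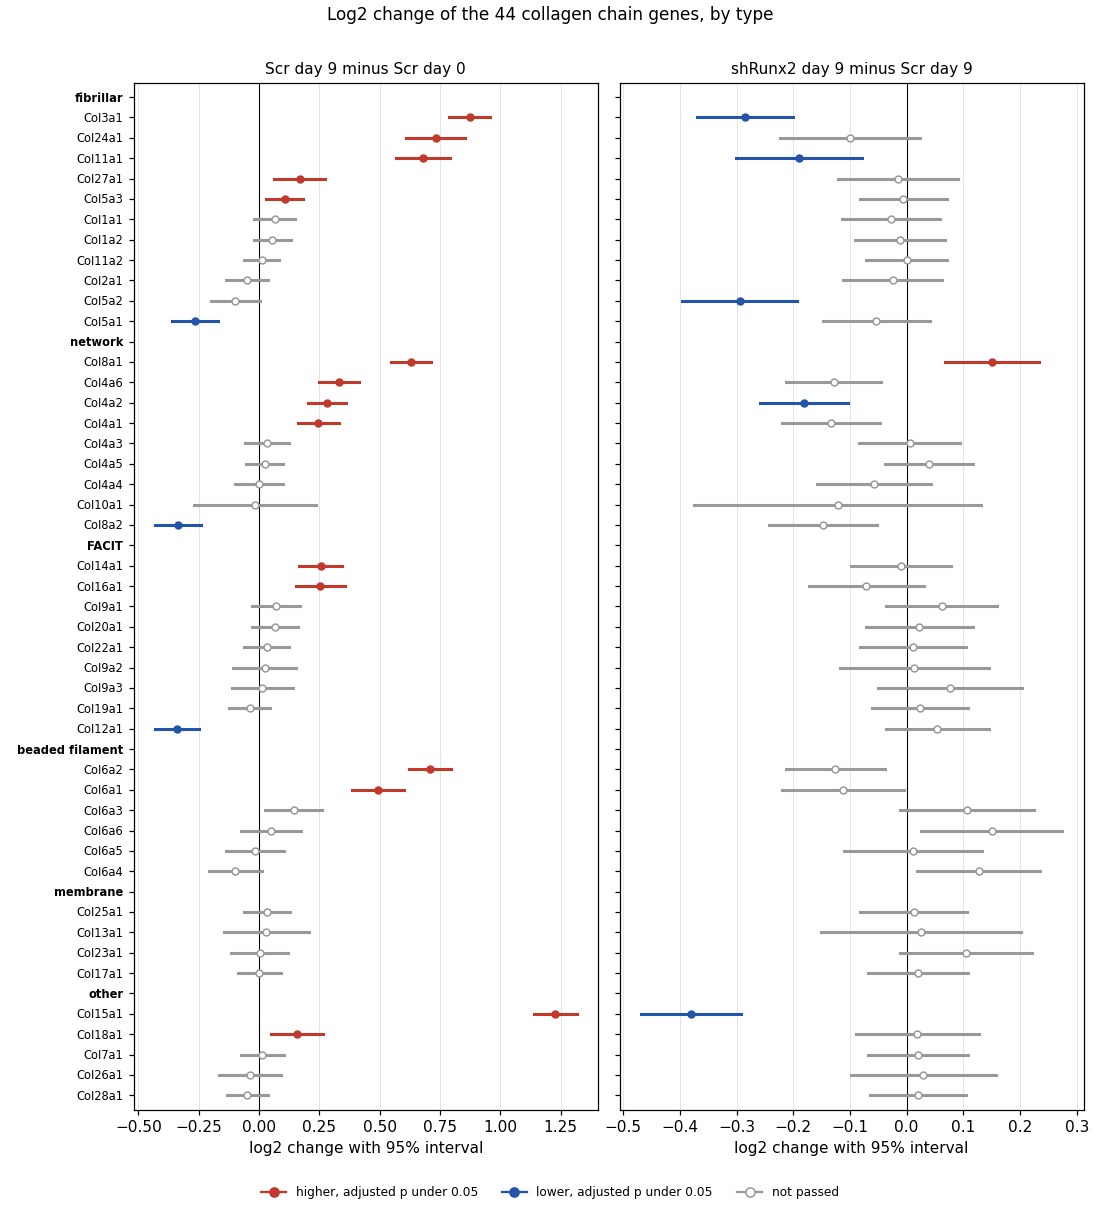
Log2 change (points) and 95% interval from limma (lines) of the 44 collagen chain genes, grouped by type, for Scr day 9 minus Scr day 0 (left) and shRunx2 day 9 minus Scr day 9 (right, on a narrower axis). Filled red and blue points passed as higher (15 left, 1 right) and lower (3 left, 5 right), and open grey points did not pass.

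Among the fibrillar chains, 5 of 11 rose and 1 fell with differentiation, against 14.5% and 17.1% of all genes. After Runx2 depletion 3 of 11 were lower, against 4.66% of all genes. Each class of collagen holds few genes, and differences between classes were not tested. Col1a1 and Col1a2 encode the chains of type I collagen, the main protein of bone. Col1a1 measured 13.45, 13.55 and 13.57 on the Scr day 0 arrays, 13.58, 13.60 and 13.59 on the Scr day 9 arrays, and 13.58, 13.56 and 13.55 on the shRunx2 arrays. Col1a2 measured 13.39, 13.45 and 13.48 at Scr day 0, 13.49, 13.51 and 13.49 at Scr day 9, and 13.48, 13.50 and 13.47 in shRunx2 cells. For both genes the Scr day 9 arrays lay just above the Scr day 0 arrays, and the shRunx2 arrays overlapped the Scr day 9 arrays. The change with differentiation was 0.06 ± 0.039 (SE) for Col1a1, with a 95% interval from -0.02 to 0.15, and 0.06 ± 0.036 for Col1a2, with an interval from -0.02 to 0.13. With depletion it was -0.03 for Col1a1 (interval -0.11 to 0.06) and -0.01 for Col1a2 (-0.09 to 0.07), and none of these passed. Against Scr day 0, the depleted cells had changes of 0.04 for both genes, which turned to -0.026 and -0.020 when each array was centred on its median. The highest value of any probe set on any array was 14.48, so both type I probe sets lay near the top of the scale, and whether differences are compressed there was not tested.

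Col3a1 encodes type III collagen, a homotrimer that mixes into type I fibrils and is abundant in skin and vessel walls. It measured 10.77, 10.73 and 10.84 at Scr day 0, 11.64, 11.68 and 11.65 at Scr day 9, and 11.40, 11.36 and 11.36 in shRunx2 cells. The 3 groups did not overlap, and the depleted cells lay between the control groups. The rise with differentiation was 1.83-fold (log2 change 0.87 ± 0.038, adjusted p = 1.28e-08), and the depleted cells were 1.22-fold lower than Scr day 9 (-0.28 ± 0.038, adjusted p = 0.000864) and 1.5-fold higher than Scr day 0 (0.59 ± 0.038, adjusted p = 3.08e-07). In the RefSeq gene table the next protein-coding gene to Col3a1 is Col5a2, which encodes a chain of type V collagen, a minor component that starts type I fibrils and limits their width.

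Col5a2 measured 11.16, 11.19 and 11.20 at Scr day 0, 11.09, 11.07 and 11.09 at Scr day 9, and 10.88, 10.70 and 10.79 in shRunx2 cells. The groups descended in that order without overlap. The change with differentiation did not pass (-0.10 ± 0.046, 95% interval -0.20 to 0.0025, adjusted p = 0.139), although it did with array weights (0.0465) and with median centring (0.0402). The depleted cells were 1.23-fold lower than Scr day 9 (-0.29 ± 0.046, adjusted p = 0.00243) and 1.31-fold lower than Scr day 0 (-0.39 ± 0.046, adjusted p = 3.6e-05). The neighbouring genes Col3a1 and Col5a2 thus had log2 changes of 0.87 and -0.10 with differentiation and of -0.28 and -0.29 with depletion.

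The partner chain Col5a1 fell with differentiation from a mean of 10.68 to 10.41 (-0.27 ± 0.043, adjusted p = 0.000483), and its change with depletion was -0.05 (interval -0.15 to 0.04). The minor type V chain Col5a3 rose by 0.11 ± 0.035 (adjusted p = 0.0379) and had a change of -0.0058 with depletion (interval -0.08 to 0.07). The rise of Col5a3 did not pass under 9 of 17 alternatives, among them median centring (adjusted p = 0.182) and a further quantile normalization (0.261). It also did not pass when an array was omitted from Scr day 0 (replicate 1, adjusted p = 0.0842, or 2, 0.109), from Scr day 9 (replicate 2, 0.0629, or 3, 0.127) or from shRunx2 (replicate 3, 0.0515). The chains of type V thus had 1 call in each direction with differentiation and 1 gene without a call.

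Col11a1 encodes a chain of type XI collagen, a relative of type V that starts the fibrils of cartilage and is also made outside it. It measured 9.78, 9.96 and 9.86 at Scr day 0, 10.57, 10.58 and 10.49 at Scr day 9, and 10.42, 10.31 and 10.34 in shRunx2 cells. No groups overlapped. The rise with differentiation was 1.6-fold (0.68 ± 0.051, adjusted p = 1.01e-06). The depleted cells were 1.14-fold lower than Scr day 9 (-0.19 ± 0.051, adjusted p = 0.045) and 1.40-fold higher than Scr day 0 (0.49 ± 0.051, adjusted p = 1.32e-05). The call with depletion was the weakest of the 6 and was lost under 10 of 17 alternatives, whose adjusted p ran from 0.0118 to 0.168 over all 17. It was lost without any of the 3 Scr day 9 arrays (0.129, 0.168 and 0.0527), any of the 3 shRunx2 arrays (0.0561, 0.144 and 0.12) or Scr day 0 replicate 3 (0.0628). Its partner Col11a2 did not pass in any comparison, with a change of 0.010 with differentiation (interval -0.06 to 0.08) and of 0.00029 with depletion (-0.07 to 0.07).

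Col24a1 encodes a fibrillar chain described in developing bone. It measured 8.70, 8.75 and 8.74 at Scr day 0, 9.56, 9.49 and 9.33 at Scr day 9, and 9.36, 9.42 and 9.30 in shRunx2 cells. All day 9 arrays lay above all day 0 arrays, and the day 9 groups overlapped. The rise was 1.66-fold (0.73 ± 0.056, adjusted p = 1.24e-06), and the depleted cells were 1.55-fold above Scr day 0 (0.63 ± 0.056, adjusted p = 3.74e-06) with a change of -0.10 against Scr day 9 (interval -0.22 to 0.02, adjusted p = 0.377). Of the remaining fibrillar chains, Col27a1, a cartilage collagen gene, rose by 0.17 ± 0.048 (adjusted p = 0.0182), a call lost on omitting Scr day 0 replicate 1 (0.0633) or 2 (0.0521) or, of Scr day 9, replicate 2 (0.0571) or 3 (0.0656), and Col2a1 did not pass (-0.05, interval -0.14 to 0.04). Of the 10 chondrocyte markers, none passed with differentiation (none at an unadjusted p under 0.05 either), while Sox9 and Epyc were higher after depletion (0.20 and 0.38). The mean of the 10 was 8.17 to 8.22 at Scr day 0, 8.16 to 8.26 at Scr day 9 and 8.25 to 8.27 in shRunx2 cells, and its part in the Col11a1 and Col27a1 values was not tested.

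**Figure D2:**
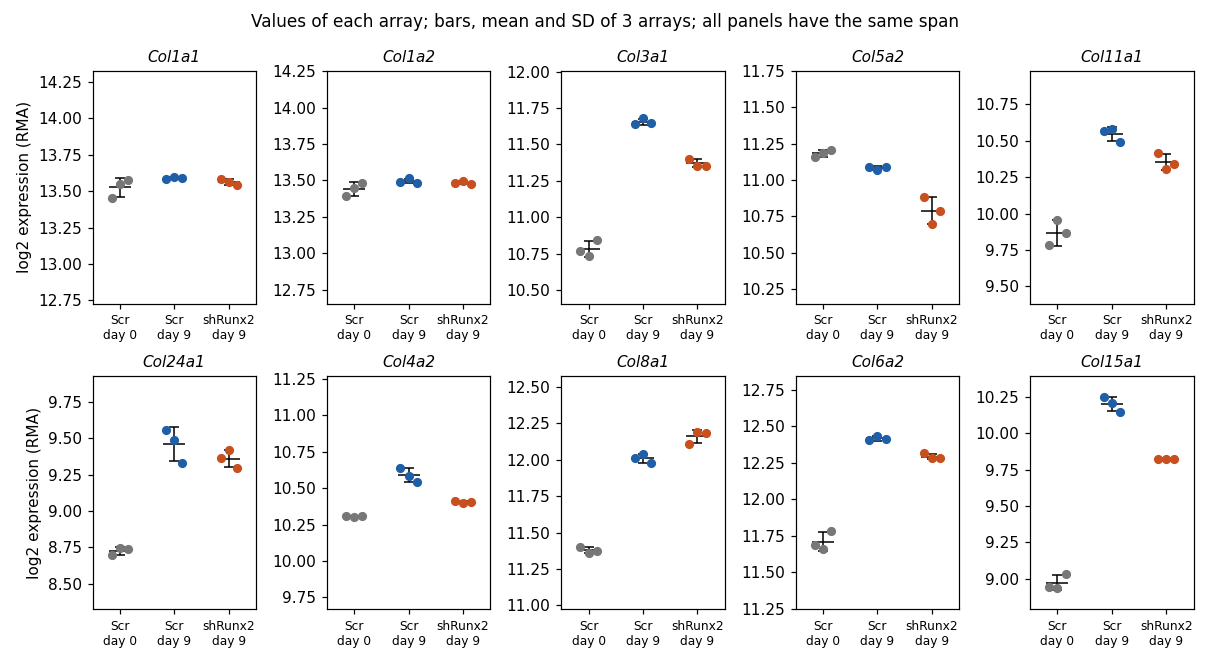
Log2 expression (RMA) on each array for 10 collagen genes, with each group's mean and SD (n = 3); all panels have the same span in log2 units. Col3a1, Col11a1 and Col15a1 lie lowest at Scr day 0, highest at Scr day 9 and between them in shRunx2 cells, Col8a1 is highest in shRunx2 cells, Col5a2 is lowest there, and Col1a1 and Col1a2 stay near 13.5 in every group.

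The sequence upstream of the start is shown for Col3a1, Col11a1 and Col24a1, the fibrillar genes that rose by at least 1.5-fold and have a window in the RefSeq promoter table (build GRCm38.p6), and for Col8a1, the member that was higher after depletion, so that their letters can be set beside the values above. Of the 44 genes, 35 had a window there, 38 windows in all, each with 250 bases before and 50 after the annotated start. Col1a1, Col5a2, Col2a1, Col4a3, Col9a3, Col12a1, Col14a1, Col22a1 and Col26a1 had none, and the window of Col15a1 is not shown. Only bases before the outermost annotated start of the gene are printed, 5′ to 3′ on the gene's strand, at chr1:45311288-45311537 and chr3:145292222-145292471 (250 bases each, plus strand), chr3:114030290-114030478 (189 bases, plus strand) and chr16:57754738-57754987 (250 bases, minus strand). Capitals mark matches, on either strand, to the core of the Runx motif, which is spelled TGTGGT. They also mark the promoter element known as the CCAAT box, searched by these letters, and a word like the TATA box that was searched as TATAAA. No matches overlapped.
Col3a1: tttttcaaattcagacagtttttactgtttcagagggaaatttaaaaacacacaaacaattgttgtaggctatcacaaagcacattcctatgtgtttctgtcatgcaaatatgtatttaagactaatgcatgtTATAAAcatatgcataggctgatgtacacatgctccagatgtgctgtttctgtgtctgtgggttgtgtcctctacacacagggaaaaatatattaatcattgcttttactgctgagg
Col11a1: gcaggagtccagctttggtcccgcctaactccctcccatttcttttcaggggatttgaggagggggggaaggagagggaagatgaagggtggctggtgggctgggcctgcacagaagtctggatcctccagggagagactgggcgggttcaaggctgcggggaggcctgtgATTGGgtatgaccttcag
Col24a1: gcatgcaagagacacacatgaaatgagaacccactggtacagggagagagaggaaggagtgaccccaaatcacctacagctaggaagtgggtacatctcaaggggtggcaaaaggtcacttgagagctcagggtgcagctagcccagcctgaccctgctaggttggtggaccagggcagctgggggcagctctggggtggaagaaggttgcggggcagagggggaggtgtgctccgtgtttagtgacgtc
Col8a1: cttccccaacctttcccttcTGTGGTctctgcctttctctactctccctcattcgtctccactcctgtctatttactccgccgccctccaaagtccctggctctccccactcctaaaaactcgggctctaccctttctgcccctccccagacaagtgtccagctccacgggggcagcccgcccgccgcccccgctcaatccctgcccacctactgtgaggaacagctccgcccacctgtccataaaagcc
The stretch of Col3a1 held the TATA-like word, that of Col11a1 the CCAAT box on the other strand, that of Col8a1 the core of the Runx motif, and that of Col24a1 none of them. Over whole windows, TGTGGT was found in 3 of the 38 collagen windows (Col8a1, Col17a1 and Col18a1), against 16.8% of all 32851 windows. The CCAAT box was found in 13 of 38, against 37.4% of all windows, and the TATA-like word in 5 of 38, against 13.6%. These matches describe letters in a short window and say nothing of binding.

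Of the network-forming chains, 4 of 9 rose and 1 fell with differentiation, against 14.5% and 17.1% of all genes. With depletion 1 rose and 1 fell, against 2.73% and 4.66% of all genes. Col4a1 and Col4a2 encode the chains of the basement membrane collagen found in most tissues, and in the RefSeq table they lie next to each other and are read in opposite directions from start regions whose windows share 78 bases. Col4a2 measured 10.31, 10.30 and 10.31 at Scr day 0, 10.64, 10.58 and 10.55 at Scr day 9, and 10.42, 10.40 and 10.41 in shRunx2 cells. The 3 groups did not overlap, with the depleted cells nearer to Scr day 0. The rise was 1.22-fold (0.28 ± 0.036, adjusted p = 7.33e-05), and the depleted cells were 1.13-fold lower than Scr day 9 (-0.18 ± 0.036, adjusted p = 0.00979).

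Against Scr day 0 the depleted cells were higher for Col4a2 by 0.10 ± 0.036 (adjusted p = 0.0474). This last call was lost under 10 of 17 alternatives, among them leaving out any of the 3 Scr day 0 arrays (0.0813, 0.112 and 0.0838), any of the 3 shRunx2 arrays (0.112, 0.0832 and 0.099) or Scr day 9 replicate 2 (0.0694), and median centring (0.475). Col4a1 had a rise of 0.25 ± 0.039 (adjusted p = 0.00042) and a change of -0.13 ± 0.039 with depletion that did not pass (interval -0.22 to -0.05, adjusted p = 0.0671). The chains of the pair thus had log2 changes of 0.25 and 0.28 with differentiation and of -0.13 and -0.18 with depletion. Col4a6, a chain of specialised basement membranes, rose by 0.33 ± 0.038 (adjusted p = 3.67e-05), and its depletion change of -0.13 did not pass (interval -0.21 to -0.04). Col4a3, Col4a4 and Col4a5 had changes between -0.00090 and 0.033 with differentiation and between -0.06 and 0.04 with depletion, and none passed.

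Col8a1 and Col8a2 encode the chains of type VIII collagen, a short-chain collagen that forms hexagonal lattices in the cornea and around vessels. Col8a1 measured 11.40, 11.36 and 11.38 at Scr day 0, 12.02, 12.04 and 11.98 at Scr day 9, and 12.11, 12.19 and 12.19 in shRunx2 cells. The groups rose in that order without overlap. The rise with differentiation was 1.55-fold (0.63 ± 0.038, adjusted p = 1.61e-07), and the depleted cells were 1.11-fold higher than Scr day 9 (0.15 ± 0.038, adjusted p = 0.0348) and 1.72-fold higher than Scr day 0 (0.78 ± 0.038, adjusted p = 2.41e-08). The call with depletion was lost under 10 of 17 alternatives (adjusted p from 0.0146 to 0.11 over all 17), including without Scr day 0 replicate 2 (0.053), Scr day 9 replicate 1 (0.0731), 2 (0.073) or 3 (0.104) and shRunx2 replicate 2 (0.11) or 3 (0.109).

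Col8a2 fell with differentiation from a mean of 10.21 to 9.87 (-0.34 ± 0.043, adjusted p = 8.68e-05) and was lower in the depleted cells than at Scr day 0 (-0.48 ± 0.043, adjusted p = 4.19e-06). Its change with depletion was -0.15 ± 0.043 (interval -0.24 to -0.05, adjusted p = 0.07). The chains of type VIII thus had calls of opposite direction with differentiation, 0.63 for Col8a1 and -0.34 for Col8a2, and changes of 0.15 and -0.15 with depletion. Col10a1 had the widest spread of any member in both day 9 groups (SD 0.219 and 0.127) and did not pass.

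**Figure D3:**
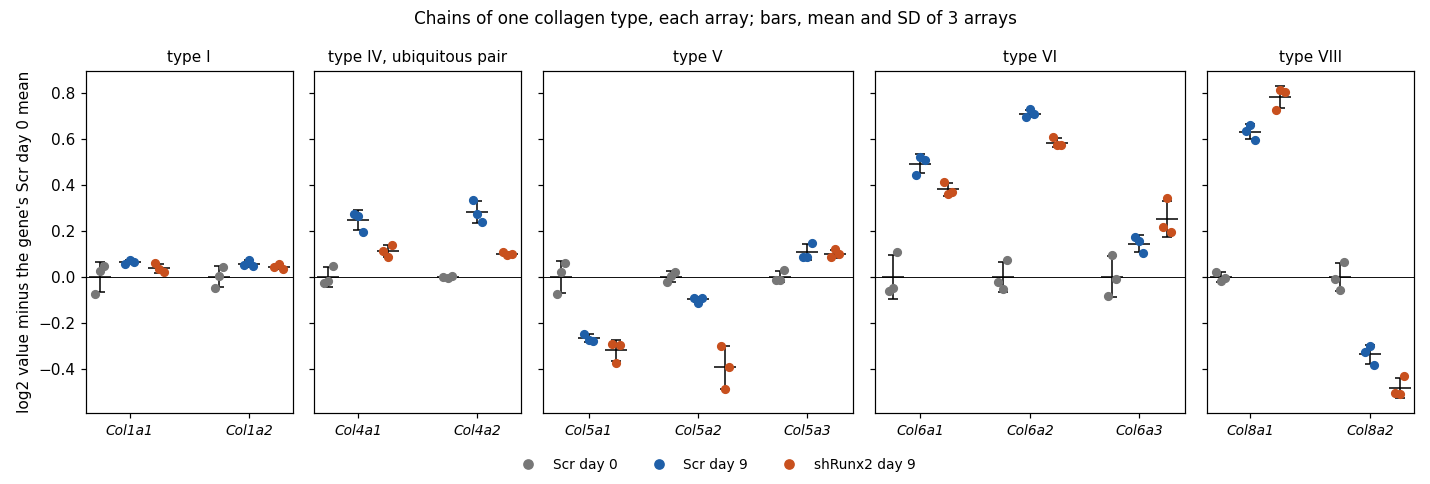
Log2 value on each array minus the gene's Scr day 0 mean, for chains of collagen types I, IV, V, VI and VIII; bars are group means and SD (n = 3). Both type IV chains and Col6a1 and Col6a2 rise at Scr day 9, of which only Col4a2 passed as lower in shRunx2 cells, the type VIII chains separate to about 0.78 and -0.48 in shRunx2 cells, and the type I chains stay near 0.

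The 6 beaded-filament genes encode chains of type VI collagen, a heterotrimer of the pericellular matrix. With differentiation 2 of them rose, against 14.5% of all genes. None passed with depletion, where 2 were higher and 2 lower at an unadjusted p under 0.05, against 7.18% and 12.4% of all genes. Col6a2 measured 11.69, 11.66 and 11.78 at Scr day 0, 12.41, 12.44 and 12.42 at Scr day 9, and 12.32, 12.28 and 12.28 in shRunx2 cells. The groups did not overlap. The rise was 1.64-fold (0.71 ± 0.040, adjusted p = 9.43e-08). The change with depletion did not pass (-0.13 ± 0.040, interval -0.21 to -0.04, adjusted p = 0.0925), although it did with array weights (0.0234) and among genes above the median level (0.0479). Its partner Col6a1, the next protein-coding gene in the RefSeq table, rose by 0.49 ± 0.049 (adjusted p = 1.08e-05) with a change of -0.11 with depletion (interval -0.22 to -0.0045).

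Col6a3, the long chain of the same heterotrimer, had a change of 0.14 ± 0.053 with differentiation (interval 0.03 to 0.26, adjusted p = 0.0636, passing under 5 of 17 alternatives, among them on omitting Scr day 0 replicate 2, 0.022, or shRunx2 replicate 2, 0.0469) and of 0.11 ± 0.053 with depletion (interval -0.01 to 0.22, adjusted p = 0.312). In the depleted cells it was higher than at Scr day 0 by 0.25 ± 0.053 (adjusted p = 0.00298), beside 0.38 for Col6a1 and 0.58 for Col6a2. The alternative chains Col6a4, Col6a5 and Col6a6, which can take the place of Col6a3, had changes of -0.10, -0.02 and 0.05 with differentiation and did not pass there or with depletion. Against Scr day 0, Col6a6 was higher in the depleted cells by 0.20 ± 0.057 (adjusted p = 0.0172), a call lost without Scr day 0 replicate 1 (0.0558), without shRunx2 replicate 2 (0.0637) and with median centring (0.054). The dimmer probe set of Col6a6 had a change of 0.019 in that comparison and did not pass.

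Of the FACIT chains, 2 of 9 rose and 1 fell with differentiation, against 14.5% and 17.1% of all genes. None passed with depletion, and none reached an unadjusted p under 0.05 there. Col12a1 and Col14a1 encode related collagens that sit on the surface of type I fibrils. Col12a1 fell from a mean of 13.27 ± 0.037 (SD, n = 3) to 12.93 ± 0.066 with differentiation (-0.34 ± 0.041, adjusted p = 5.9e-05), and Col14a1 rose from 8.71 ± 0.030 to 8.96 ± 0.033 (0.26 ± 0.040, adjusted p = 0.0004). The changes of this pair with depletion were 0.05 (interval -0.04 to 0.15) and -0.0097 (interval -0.10 to 0.08). Col16a1, a FACIT collagen of fibroblasts and cartilage, rose by 0.25 ± 0.046 (adjusted p = 0.00112). The type IX chains of cartilage fibrils, Col9a1, Col9a2 and Col9a3, had changes from 0.014 to 0.07 with differentiation and did not pass there. Against Scr day 0, Col9a1 was higher in the depleted cells by 0.13 ± 0.045 (adjusted p = 0.0398). That call was lost under 10 of 17 alternatives, among them median centring (0.218) and a further quantile normalization (0.209).

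The 4 membrane collagens Col13a1, Col17a1, Col23a1 and Col25a1, which span the cell membrane and can be shed from it, did not pass in any comparison, at an unadjusted p under 0.05 either. Their log2 changes lay between 0.0020 and 0.03 with differentiation and between 0.01 and 0.11 with depletion. Col13a1 had the widest spread of any member at Scr day 0 (SD 0.191), where its arrays measured 8.85, 9.12 and 9.21. An interval from -0.15 to 0.21 was left for its change with differentiation. Whether the membrane collagens were expressed in these cells was not determined.

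Col15a1 and Col18a1 encode the multiplexins, collagens with an interrupted helix that carry glycosaminoglycans and lie at the border of basement membrane and fibrillar matrix. Col15a1 measured 8.94, 8.94 and 9.03 at Scr day 0, 10.25, 10.21 and 10.15 at Scr day 9, and 9.82 on each of the 3 shRunx2 arrays. The groups did not overlap, and the depleted cells lay between the control groups. The rise with differentiation was the largest of the 44 members, 2.34-fold (1.23 ± 0.040, adjusted p = 1.12e-09). The fall with depletion was likewise the largest, 1.30-fold (-0.38 ± 0.040, adjusted p = 0.000146), and the depleted cells stayed 1.80-fold above Scr day 0 (0.85 ± 0.040, adjusted p = 2.06e-08). The 3 shRunx2 values were identical as deposited, which was so for 1.92% of all genes in that group, so the SD of 0 does not measure the spread between cultures. The SE above is limma's, drawn from all groups and genes. The tied arrays enter it with no deviation, so this SE may be too small. Col18a1 rose by 0.16 ± 0.049 with differentiation (adjusted p = 0.0296) and had a change of 0.02 with depletion (interval -0.09 to 0.13). The call with differentiation was lost under 7 of 17 alternatives, among them median centring (0.0699) and a further quantile normalization (0.116). It was also lost on omitting Scr day 0 replicate 1 (0.0941) or, of Scr day 9, replicate 2 (0.093) or 3 (0.0689). Col7a1 of the anchoring fibrils of skin, Col26a1 and Col28a1 did not pass in any comparison.

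Both multiplexins and the type IV and VIII chains are also made by endothelial and smooth muscle cells. None of the 8 endothelial markers passed in any comparison (none at an unadjusted p under 0.05), and their mean was 7.79 to 7.82, 7.73 to 7.82 and 7.82 to 7.84 over the arrays of Scr day 0, Scr day 9 and shRunx2. Of the 6 smooth muscle markers, Tagln rose and Actg2 and Lmod1 fell with differentiation. With depletion Tagln was lower, and 2 others were higher at an unadjusted p under 0.05 only. In the depleted cells against Scr day 0, Cnn1 was higher (0.18, adjusted p = 0.0253) and Actg2 lower (-0.41, adjusted p = 4.09e-06). The mean of the 6 smooth muscle markers was 10.59 to 10.60, 10.5 to 10.52 and 10.55 to 10.57 in the same groups, and their part in the collagen values was not tested. None of the 6 adipocyte markers passed (1 was lower with differentiation at an unadjusted p under 0.05), and of the 7 macrophage markers Lyz2 rose with differentiation and was higher again with depletion, while Cd14 fell with differentiation.

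The genes that modify and assemble collagen were read beside the chains. Of 32 measured genes for the folding, modification and processing of collagen, 7 rose and 14 fell with differentiation, when 14.5% of all genes were higher and 17.1% lower, with a median log2 change of -0.11 against -0.016 over all genes. Of 9 collagen receptor genes, 2 rose and 3 fell. The 4 smallest adjusted p of both lists belonged to Itga10, P4ha2, Itga11 and Lox. Itga10 and Itga11, which encode alpha subunits of collagen-binding integrins, changed in opposite directions, 2.97-fold up (1.57 ± 0.045, adjusted p = 4e-10) and 2.10-fold down (-1.07 ± 0.041, adjusted p = 3.93e-09). P4ha2, a catalytic subunit of the proline hydroxylase that stabilises the helix, fell 2.96-fold (-1.57 ± 0.052, adjusted p = 1.21e-09), and Lox, which starts the crosslinking of fibrils, fell 1.95-fold (-0.96 ± 0.037, adjusted p = 4.05e-09).

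With depletion, 9 of the 32 processing genes fell and 2 rose, and 1 of the 9 receptors rose, all by less than 1.5-fold, when 4.66% of all genes were lower and 2.73% higher. Lox, which had fallen with differentiation, was 1.26-fold higher in the depleted cells (0.34 ± 0.037, adjusted p = 0.000182). Its 3 shRunx2 values were identical as deposited (12.386, SD 0), so they do not measure the spread between cultures, and the tie also enters this SE. Fkbp14, a prolyl isomerase of collagen folding, was 1.25-fold lower (-0.32 ± 0.044, adjusted p = 0.000996) after a rise of 0.78 with differentiation. P4ha1, another form of the catalytic subunit of that hydroxylase, was 1.21-fold lower (-0.27 ± 0.039, adjusted p = 0.00124) and P3h2, a prolyl 3-hydroxylase, 1.15-fold lower (-0.20 ± 0.034, adjusted p = 0.00444), both after a fall with differentiation (-0.76 and -0.53). The count of 9 fell to 5 without Scr day 9 replicate 1, to 4 without Scr day 9 replicate 2 and to 5 without shRunx2 replicate 1 or 2. Across both lists the count of 3 rising genes (Lox, Pcolce2 and Itga1) fell to 1 on omitting Scr day 9 replicate 2 or either of the shRunx2 replicates 1 and 2. Pcolce2, Itga1 and the marker genes named above fall outside the rule for named genes and were named after their values were seen.

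**Figure D4:**
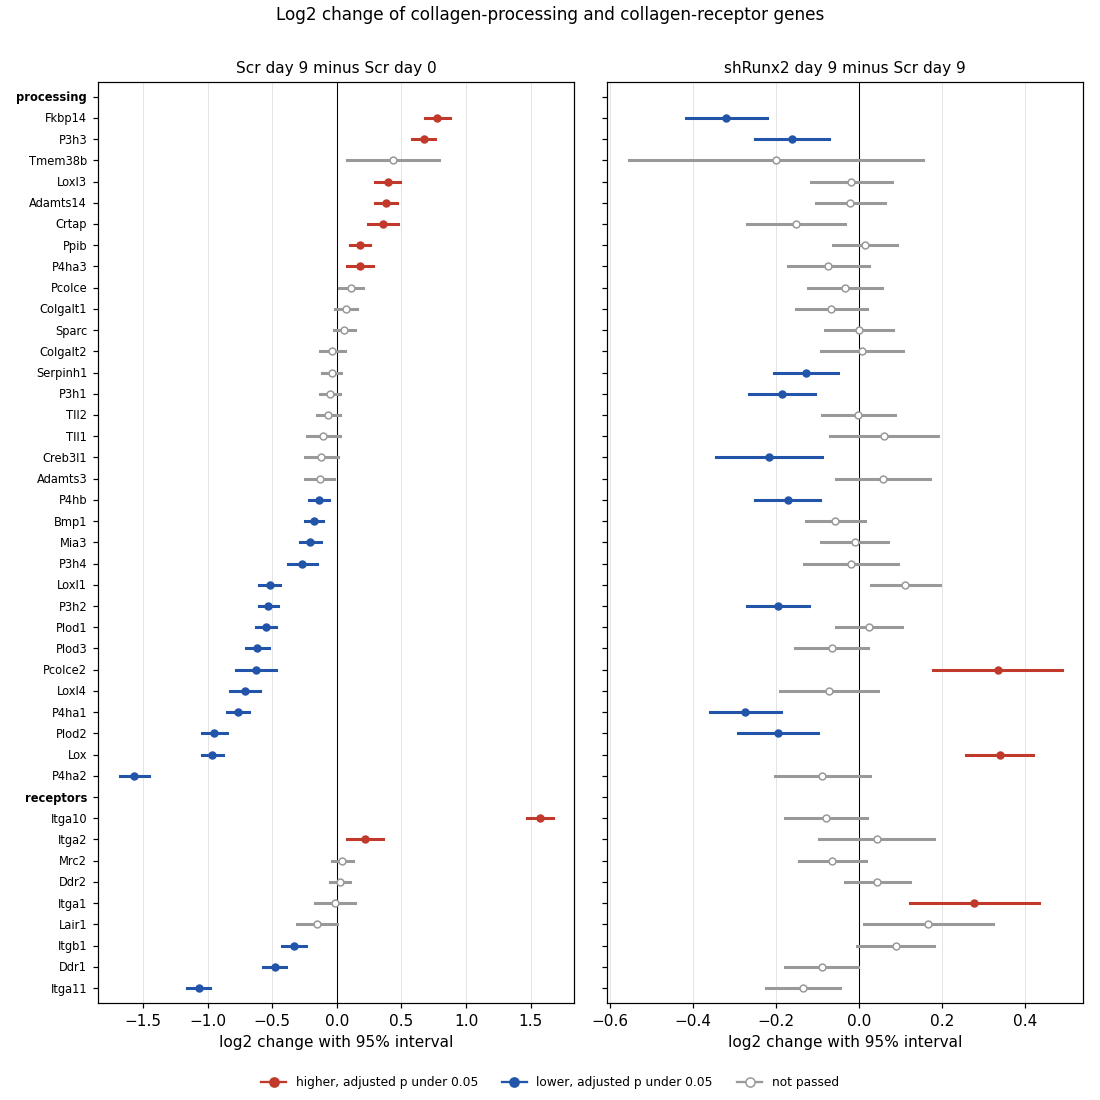
Log2 change (points) and 95% interval from limma (lines) of 32 collagen-processing and 9 collagen-receptor genes, for Scr day 9 minus Scr day 0 (left) and shRunx2 day 9 minus Scr day 9 (right, on a narrower axis); filled points passed at an adjusted p under 0.05. Lox is lower at day 9 and higher after depletion, P4ha1 is lower in both panels, and Itga10 and Itga11 lie at 1.57 and -1.07 on the left.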

How the data were processed

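The deposited values were log2 expression, made by the authors with RMA in R and Bioconductor, and per the labels limma was also used in the study. The study's methods mention a filter that they do not describe, and the table read here held 34760 probe sets. The platform annotation gave 1 symbol to 21640 of them, several to 1321 and none to 11799. The probe set with the highest mean over the 9 arrays stood for each gene, which left 19937 genes. All 44 collagen genes were found by gene ID in RefSeq's table (GRCm38.p6). Group means were fitted over all 9 arrays with limma 3.58.1 (R 4.3.3) without covariates, with Benjamini-Hochberg adjustment over all genes, and a call is an adjusted p under 0.05. Intervals are 95% intervals from the moderated fit, and the script was tested on simulated data. Levels of different probe sets were not compared. Members called with depletion, members called at 1.5-fold or more in another comparison, Col1a1 and Col1a2 have their values on every array, and of the processing and receptor lists the 4 genes of smallest adjusted p in each comparison are named. The members and lists were chosen with earlier results of these data known. The labels call the samples of a group biological replicates. Alternatives were a replicate block, leaving out each array, the arrays of 2 groups only, 2 other scalings, array weights, the mean of a gene's probe sets, every probe set, genes above the median level, and a change of at least 1.5-fold.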

Additional observations from a re-analysis of the deposited data

How the results depend on the processing

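Col15a1, Col3a1, Col5a2 and Col4a2 kept their calls as lower with depletion under all 17 alternative fits, and Col11a1 and Col8a1 did not. With a change of at least 1.5-fold required, 6 collagen genes were higher and 0 lower with differentiation, 0 and 0 with depletion, and 4 and 0 in shRunx2 day 9 against Scr day 0; among processing and receptor genes the counts were 3 and 8, 0 and 0, and 1 and 8. Median centring gave 5 lower with differentiation, 0 higher with depletion, and 11 higher with a median of -0.0045 in shRunx2 day 9 against Scr day 0, where Col1a1 (-0.0262) and Col1a2 (-0.0195) changed sign; it moved the median of all genes by at most -0.064. The count of members higher with depletion was also 0 in a fit of the 6 arrays compared and in a fit of every probe set, which left 1 processing or receptor gene higher and 5 lower. Col4a1 and Col4a6 passed as lower with depletion under 3 alternatives each and Col8a2 under 2. Array weights gave 9 members lower with depletion, and genes above the median level 8, of 34 members tested. The causes were not tested.

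Leaving out single arrays gave 12 to 16 members higher and 3 to 4 lower with differentiation, 0 to 1 and 4 to 5 with depletion, and 12 to 18 and 4 in shRunx2 day 9 against Scr day 0, with medians of 0.0076 to 0.079, -0.025 to 0.010 and 0.037 to 0.0996. Among processing and receptor genes it gave 8 to 10 higher and 17 to 18 lower with differentiation, 1 to 3 and 4 to 9 with depletion, and 8 to 10 and 20 in the last comparison. With the replicate number as a block, 0 members were higher with depletion (adjusted p = 0.0578 for Col8a1, and 0.0634 for Col11a1), and Col4a2 against Scr day 0 had 0.0627. Deviations of same-numbered arrays correlated at 0.29, 0.082 and 0.29 with differentiation, -0.037, 0.096 and -0.11 with depletion, and -0.04, 0.13 and -0.037 in the last comparison, and in no comparison did every pair exceed 0.1, so the numbers were not taken to pair the arrays. Replicates 1 and 3 correlated best with their own number in differentiation and replicate 2 in the other comparisons, a hint from the data and not from the design.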

Other observations

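The lowest value of a member came mostly from replicate 1 in both Scr groups. Scr day 0 replicate 1 held the lowest of the 3 values for 34 of the 44 members (77.3%), against 38.5% of all genes, and Scr day 0 replicate 3 for 0 members, against 34.9%. Scr day 9 replicate 1 held the lowest for 30 members (68.2%), against 43.8% of all genes. In shRunx2 cells the count was 13, 18 and 13 for replicates 1, 2 and 3. Without Scr day 0 replicate 1 the count of members rising with differentiation was 12, against 15 with it.

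Among the members, exactly equal values on all 3 arrays of a group occurred for Col6a5 at Scr day 0 and for Col11a2, Col15a1 and Col4a6 in shRunx2 cells, against 1.54% and 1.92% of all genes in these groups. In shRunx2 cells 9 of the 44 members had at least 2 equal values, against 13.6% of all genes. The count was 3 members at Scr day 0, against 11.8% of all genes, and 1 at Scr day 9, against 13.5%.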
